A study of Mus musculus with 15 samples.

Results

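Class I molecules carry short peptides from the cytosol to the cell surface, where CD8 T cells read them. A heavy chain (such as HLA-B or HLA-C, or the less variable HLA-E) pairs with beta-2-microglobulin, the product of B2M. Peptides cut by the proteasome are pumped into the endoplasmic reticulum by the TAP1 and TAP2 transporter, trimmed there by ERAP1, and loaded with the help of tapasin, the product of TAPBP. NLRC5 is the transactivator that drives many of these genes together, and in tumour cells loss of heavy chains, B2M or TAP1 is a known route away from T cells. The 9 genes described here are HLA-B, HLA-C, HLA-E, B2M, TAP1, TAP2, TAPBP, NLRC5 and ERAP1. They were taken by their listed symbols, each of which stands on a single row of both deposited count tables, out of 56967 rows used. All 9 had enough counts to be among the 19051 genes tested.

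Polyadenylated RNA of MDA-MB-468, a basal-like line established from a breast carcinoma, was sequenced in 15 libraries. The 5 groups of 3 libraries were a control hairpin (NC), 2 hairpin sets against SHCBP1 (shSHCBP1_1 and shSHCBP1_2) and 2 against TMEM45A. The shTMEM45A sets are called set 4 and set 2 after their column names. Set 4 was matched to the remaining labelled set by elimination. Every group carried a hairpin, and all groups share the same line. Nothing in the labels ties the 3 libraries of a group to separate cultures, and p-values cover the spread between the sequenced libraries, which may be technical. The organism in the labels is the mouse, but the gene symbols are human, and the values were read as human counts.

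Library totals ran from 13780294 to 16484000 counts, and levels are given as CPM, counts relative to the TMM-scaled library total. SHCBP1 stood at 44.1 ± 2.53 CPM in NC and at 47.1 ± 1.24 and 44.3 ± 1.12 in the libraries labelled shSHCBP1_1 and shSHCBP1_2 (mean ± SD, n = 3), which was not lower (edgeR adjusted p = 0.412 and 0.962). The TMEM45A transcript changed by -0.58 (log2) in set 4 and -0.46 in set 2, both past the threshold. In those sets 38.9% and 39.8% of all genes passed as lower, and SHCBP1 passed as higher (0.25 and 0.44). NC and the libraries labelled shSHCBP1 stand in one table and the shTMEM45A libraries in the other, so wherever shTMEM45A is compared with NC, hairpin target and table cannot be told apart. Every comparison with a hairpin set used the same NC libraries. Of 12 markers of the line, 4 had enough counts to be tested, and KRT5, KRT6B, KRT16 and S100A8 had 0 counts in all libraries. Of 16 leukocyte markers 8 were tested, PTPRC and MS4A1 had 0 counts and CD3E had 1. In bulk RNA, fewer cells with a transcript and less of it per cell cannot be told apart.

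In both shTMEM45A sets the transcripts of the heavy chains, B2M and tapasin went up, while those of TAP1 and ERAP1 went down. HLA-B, HLA-C, HLA-E, B2M and TAPBP rose by 1.17- to 1.64-fold, while TAP1 fell to 0.32 and 0.24 of its NC level and ERAP1 to 0.48 and 0.62. In set 4, 5 of the 9 genes passed as higher and 2 as lower, where 35.6% and 38.9% of all genes tested passed in those directions and 74.4% in either. In set 2, 5 passed as higher and 3 as lower, beside 36.1%, 39.8% and 75.9% of all genes. The median log2 change of the 9 genes was 0.24 in set 4 and 0.22 in set 2, beside -0.03 and -0.04 over all genes. Most genes of the table passed in these comparisons, so a count of 7 or 8 of 9 is near the background, and the sizes and directions of single genes carry the description.

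In the libraries labelled shSHCBP1 the changes were small, and those that passed were lower. HLA-B, HLA-C and HLA-E passed as lower in both sets, with HLA-E at 0.81 and 0.77 of its NC level. B2M and TAP2 passed as lower in shSHCBP1_2. That makes 3 of 9 genes lower in shSHCBP1_1, where 10.5% of all genes passed as lower and 19.9% in either direction, and 5 of 9 in shSHCBP1_2, beside 15.4% and 31.1%. Total-count scaling left 1 of 9 in each set, and in shSHCBP1_2 the count was 3 with no filter on low counts and also without its replicate 1 or 3. None of the 9 passed as higher in either set by edgeR or DESeq2, and none was higher at an unadjusted p under 0.05, while 9.34% and 15.6% of all genes passed as higher. The median log2 change of the 9 genes was -0.08 in shSHCBP1_1 and -0.16 in shSHCBP1_2, beside 0.01 over all genes in each.

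**Figure D1:**
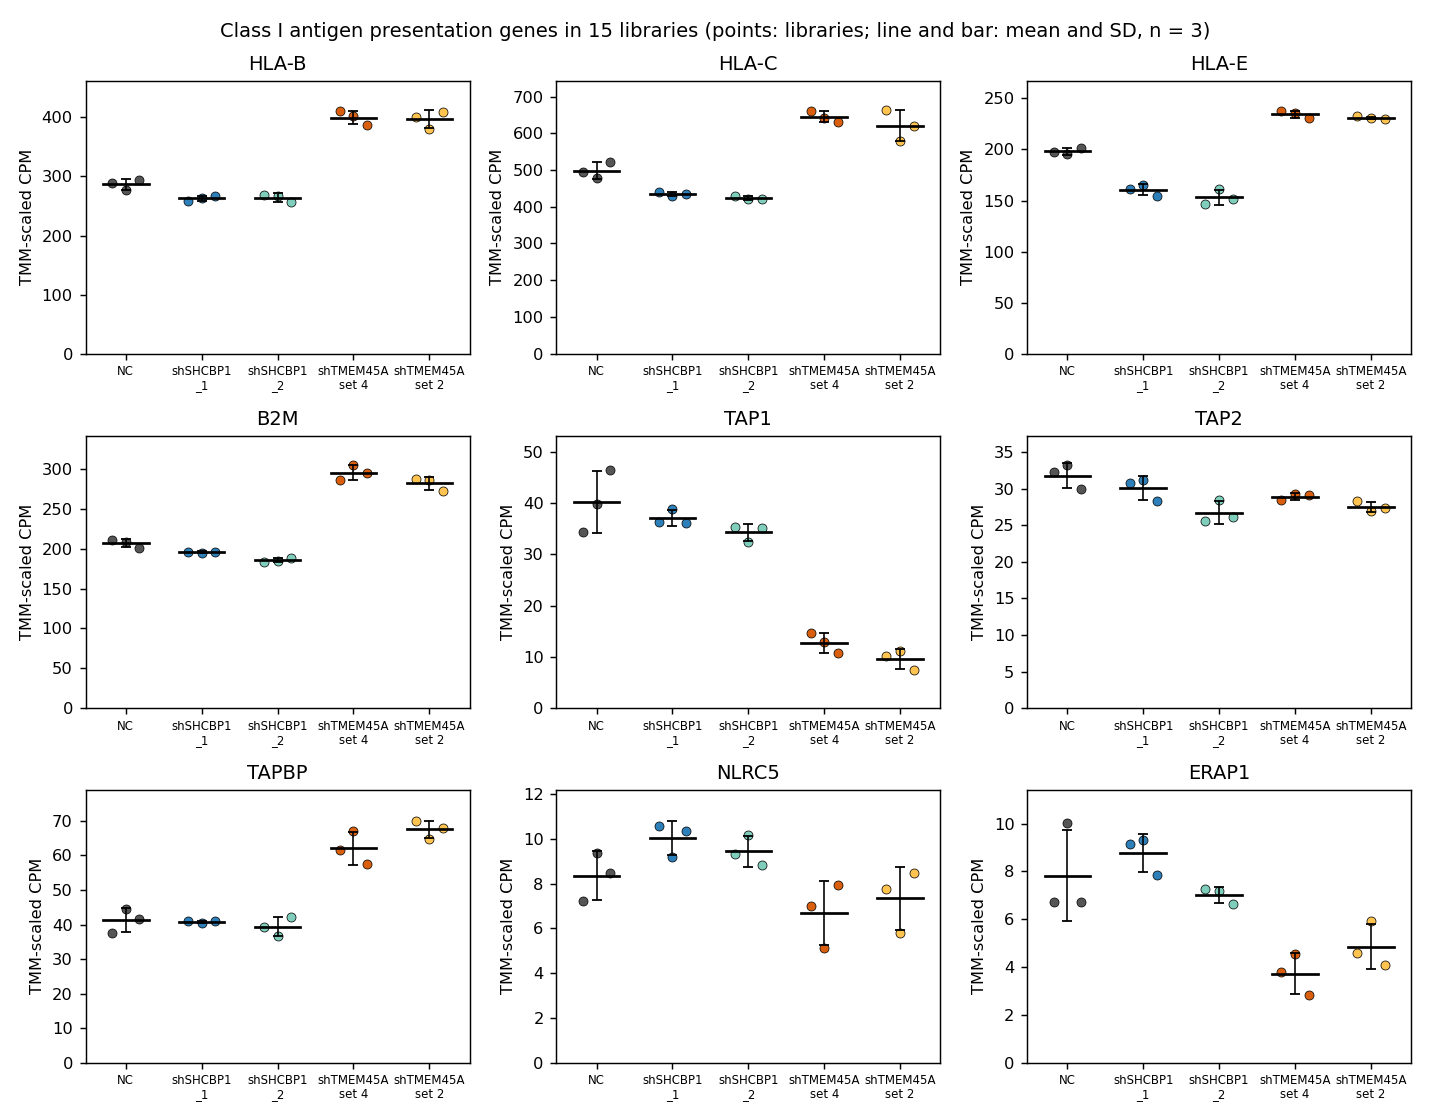
TMM-scaled CPM (vertical axis, starting at 0) of the 9 genes in the 15 libraries, with points for libraries and the mean and SD of 3 as line and bar. TAP1 stands at 7.34 to 14.6 CPM in the 6 shTMEM45A libraries and at 32.4 to 46.4 in the 9 others, while HLA-B, HLA-C, HLA-E, B2M and TAPBP are highest in the shTMEM45A libraries.

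Among the heavy chains, HLA-B stood at 289, 277 and 294 CPM in NC, at 259, 263 and 268 in shSHCBP1_1, at 269, 267 and 256 in shSHCBP1_2, at 410.4, 402 and 387 in set 4 and at 401, 381 and 409 in set 2. All 6 shTMEM45A libraries lay above all 3 NC libraries, and all 6 libraries labelled shSHCBP1 lay below them. The log2 change was 0.48 (SE 0.04, edgeR adjusted p = 3.27e-11) in set 4 and 0.47 (SE 0.04, adjusted p = 4.8e-11) in set 2. In shSHCBP1_1 and shSHCBP1_2 it was -0.12 in each (SE 0.04, adjusted p = 0.0497 and 0.0438), which turned to 0.02 and 0.05 under total-count scaling. These small falls rest close to the threshold. The call in shSHCBP1_1 was lost in 9 of 15 fits that left out 1 library (NC replicate 1 or 3, any replicate of shSHCBP1_1 or shSHCBP1_2, or set 4 column 2), with adjusted p from 0.019 to 0.206 over the 15. The call in shSHCBP1_2 was lost in 8 of 15 (NC replicate 1 or 3, or any replicate labelled shSHCBP1), with adjusted p from 0.0184 to 0.191.

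HLA-C stood at 493, 478 and 523 CPM in NC, at 441, 428 and 435 in shSHCBP1_1, at 431, 421 and 420.2 in shSHCBP1_2, at 661, 642 and 632 in set 4 and at 663, 578 and 620.1 in set 2. The 3 blocks of groups did not overlap, with both shTMEM45A sets above NC and NC above both sets labelled shSHCBP1. HLA-C rose by 0.37 (log2) in set 4 (SE 0.04, edgeR adjusted p = 1.15e-08) and by 0.32 in set 2 (SE 0.04, adjusted p = 2.29e-07). It changed by -0.20 in shSHCBP1_1 (adjusted p = 0.00189) and by -0.23 in shSHCBP1_2 (adjusted p = 0.000162), both past the threshold, but total-count scaling reduced these to -0.05 and -0.07, which did not pass (adjusted p = 0.405 and 0.243). HLA-B and HLA-C are closely similar in sequence, so the authors' counting could divide reads between them in ways that these tables do not show.

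HLA-E, whose product presents leader peptides of other heavy chains to NK cell receptors, stood at 198, 195 and 202 CPM in NC, at 161, 166 and 155 in shSHCBP1_1, at 147, 161 and 152 in shSHCBP1_2, at 238, 236 and 231 in set 4 and at 232, 231 and 230.3 in set 2. Again the shTMEM45A libraries were all above NC and the libraries labelled shSHCBP1 all below it. HLA-E was lower, with a log2 change of -0.30 in shSHCBP1_1 (SE 0.05, edgeR adjusted p = 1.9e-05) and -0.37 in shSHCBP1_2 (SE 0.05, adjusted p = 3.42e-07). It was the single one of the 9 genes whose fall in both sets still passed with total-count scaling, at -0.16 and -0.21 (adjusted p = 0.011 and 0.00077). Its rises in the shTMEM45A sets, 0.24 (adjusted p = 2.8e-05) and 0.22 (adjusted p = 9.14e-05), were the smallest of the 5 and did not pass under that scaling, at 0.05 and 0.03 (adjusted p = 0.31 and 0.54).

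B2M, the light chain that every one of these heavy chains needs, stood at 211, 208 and 202 CPM in NC, at 197, 195 and 197 in shSHCBP1_1, at 183, 185 and 189 in shSHCBP1_2, at 286, 305 and 296 in set 4 and at 288, 286 and 273 in set 2. Both shTMEM45A sets lay above NC and NC above the libraries labelled shSHCBP1, and its values in shSHCBP1_1 and shSHCBP1_2 did not overlap each other. B2M rose by 0.51 (log2) in set 4 (SE 0.04, edgeR adjusted p = 9.81e-12) and by 0.45 in set 2 (SE 0.04, adjusted p = 1.98e-10). In shSHCBP1_2 it changed by -0.16, which passed (adjusted p = 0.00803), and in shSHCBP1_1 by -0.08, which did not (adjusted p = 0.241) although it did with RLE size factors (-0.14, adjusted p = 0.0198). Both values turned positive under total-count scaling, at 0.01 and 0.07 in that order.

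**Figure D2:**
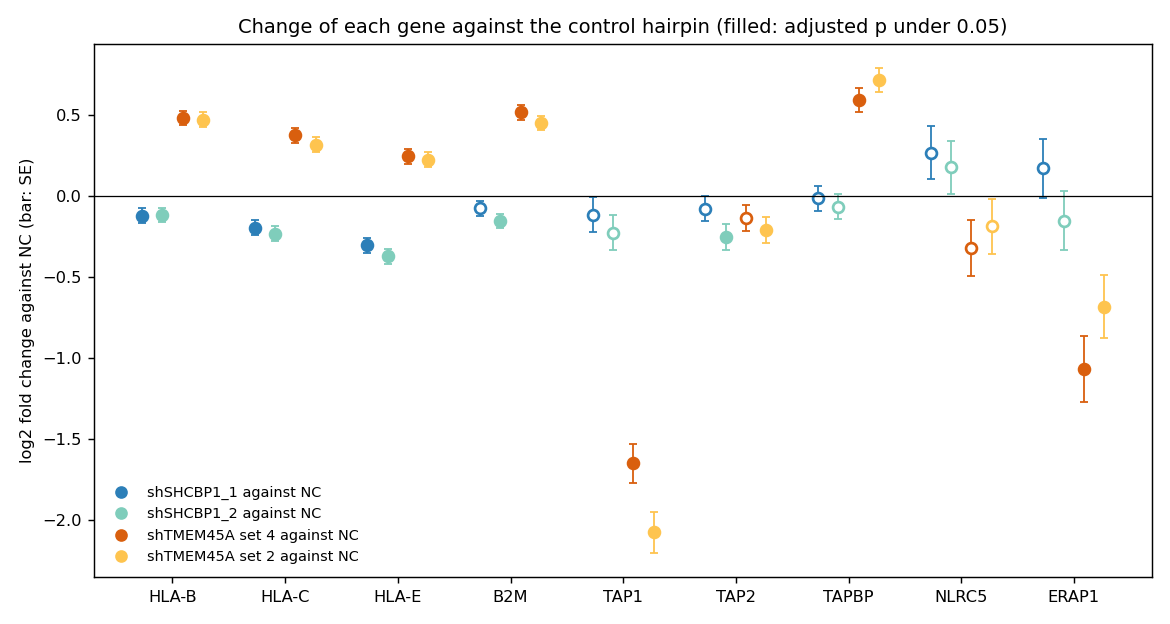
Log2 fold change against NC (vertical axis, bar = SE) of the 9 genes in the 4 hairpin sets, filled where the edgeR adjusted p was under 0.05. TAP1 at -1.65 and -2.07 and ERAP1 at -1.07 and -0.68 lie below 0 in set 4 and set 2, whereas the heavy chains, B2M and TAPBP lie between 0.22 and 0.71.

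The transporter genes parted from each other. TAP1, which with TAP2 forms the peptide pump, stood at 34.3, 39.9 and 46.4 CPM in NC, at 36.3, 38.8 and 36.2 in shSHCBP1_1, at 35.4, 32.4 and 35.1 in shSHCBP1_2, at 14.6, 12.9 and 10.8 in set 4 and at 10.2, 11.1 and 7.34 in set 2. Every shTMEM45A library was below every other library, and NC overlapped both sets labelled shSHCBP1. TAP1 was lower, with a log2 change of -1.65 in set 4 (SE 0.12, edgeR adjusted p = 2.16e-13) and -2.07 in set 2 (SE 0.13, adjusted p = 2.09e-15). Over the 15 fits without 1 library the value stayed between -1.77 and -1.53 in set 4 and between -2.20 and -1.92 in set 2.

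For TAP1 the libraries labelled shSHCBP1 gave -0.12 (adjusted p = 0.5) and -0.23 (adjusted p = 0.108), of which the first turned to 0.03 under total-count scaling and to 0.0058 without NC replicate 3. The second passed without NC replicate 1 (-0.33, adjusted p = 0.0364), with RLE size factors (adjusted p = 0.0263), with DESeq2 (adjusted p = 0.0309) and in a fit of the compared groups alone (adjusted p = 0.021). Strand was not kept by the kit used, and antisense reads could enter these counts. PSMB8-AS1, an antisense gene of the same gene cluster, had 19 counts over the NC libraries beside 1735 for TAP1, and 2 and 0 counts in set 4 and set 2 beside 530 and 398.

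TAP2, the other subunit of the pump, stood at 32.3, 33.2 and 29.9 CPM in NC, at 30.8, 31.3 and 28.3 in shSHCBP1_1, at 25.5, 28.5 and 26.1 in shSHCBP1_2, at 28.4, 29.3 and 29.1 in set 4 and at 28.3, 26.9 and 27.3 in set 2. All values lay between 25.5 and 33.2 CPM, NC overlapped shSHCBP1_1, and shSHCBP1_1 overlapped set 4. The log2 change was -0.25 in shSHCBP1_2 (SE 0.08, edgeR adjusted p = 0.0177) and -0.21 in set 2 (SE 0.08, adjusted p = 0.0219), both past the threshold, and -0.08 in shSHCBP1_1 (adjusted p = 0.554) and -0.14 in set 4 (adjusted p = 0.131), neither past it. Both calls depended on single libraries. That in shSHCBP1_2 was lost without NC replicate 1 (adjusted p = 0.061) or 2 (0.0803) and without shSHCBP1_2 replicate 1 (0.0875) or 3 (0.0713), and that in set 2 without NC replicate 2 (-0.19, adjusted p = 0.0698). Total-count scaling put TAP2 lower in set 4 as well (-0.33, adjusted p = 0.000699), ended the call in shSHCBP1_2 (-0.09, adjusted p = 0.442) and turned shSHCBP1_1 to 0.06.

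A ratio of counts within a library does not depend on its scaling. Gene lengths were not at hand, so a ratio is read across libraries and not as a ratio of molecules. TAP1 counts per TAP2 count were between 1.06 and 1.55 in NC, between 1.18 and 1.28 in shSHCBP1_1, and between 1.14 and 1.39 in shSHCBP1_2. The same ratio ran from 0.370 to 0.514 in set 4 and from 0.269 to 0.411 in set 2. All 6 shTMEM45A libraries lay far under the lowest of the other 9.

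Tapasin bridges the transporter and the empty heavy chain. Its gene TAPBP stood at 37.6, 44.5 and 41.5 CPM in NC, at 41.0, 40.5 and 40.9 in shSHCBP1_1, at 39.4, 36.7 and 42.0 in shSHCBP1_2, at 61.5, 67.2 and 57.5 in set 4 and at 70.0, 64.9 and 67.9 in set 2. NC and the libraries labelled shSHCBP1 overlapped, and the shTMEM45A libraries were all higher. TAPBP rose by 0.59 (log2) in set 4 (SE 0.08, edgeR adjusted p = 3.41e-08) and by 0.71 in set 2 (SE 0.07, adjusted p = 6.4e-10), the largest rises among the 9 genes in these sets. TAP1 counts per TAPBP count were 0.975 ± 0.123 in NC, 0.206 ± 0.0277 in set 4 and 0.141 ± 0.0314 in set 2 (SD, n = 3). The libraries labelled shSHCBP1 gave -0.01 and -0.07 (adjusted p = 0.928 and 0.556), which turned to 0.13 and 0.10 under total-count scaling, and the first also to 0.01 under upper quartile scaling and to 0.04 without NC replicate 2.

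ERAP1, the aminopeptidase that shortens peptides to the length class I grooves hold, stood at 6.73, 10.0 and 6.70 CPM in NC, at 9.15, 9.33 and 7.86 in shSHCBP1_1, at 7.27, 7.17 and 6.64 in shSHCBP1_2, at 3.77, 4.54 and 2.82 in set 4 and at 4.58, 5.92 and 4.07 in set 2. One NC library was high, NC overlapped both sets labelled shSHCBP1, and all 6 shTMEM45A libraries lay below those 9. ERAP1 was lower, with a log2 change of -1.07 in set 4 (SE 0.20, edgeR adjusted p = 2.4e-05) and -0.68 in set 2 (SE 0.19, adjusted p = 0.00232). Without 1 library the fall in set 2 ran from -0.86 to -0.48 with adjusted p of at most 0.0416. The log2 changes in shSHCBP1_1 and shSHCBP1_2 were 0.17 and -0.15 (adjusted p = 0.573 and 0.574), and the second turned to 0.01 under total-count scaling and to 0.06 without NC replicate 2.

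ERAP2, a second trimming enzyme of the endoplasmic reticulum that lies beside ERAP1 in the human genome, went the other way. It stood at 1.23 ± 0.167 CPM in NC, at 5.98 ± 1.01 in set 4 and at 6.64 ± 1.63 in set 2, log2 changes of 2.28 and 2.43 (SE 0.27 for each, edgeR adjusted p = 8.61e-09 and 1.82e-09). ERAP1 counts per ERAP2 count ran from 4.85 to 9.53 in NC and from 2.90 to 4.74 in the libraries labelled shSHCBP1. That ratio ran from 0.474 to 0.912 over the 6 shTMEM45A libraries, below every value of the other 9.

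NLRC5, the regulator, was low and spread widely. It stood at 7.22, 9.38 and 8.50 CPM in NC, at 10.6, 9.20 and 10.4 in shSHCBP1_1, at 9.33, 10.2 and 8.82 in shSHCBP1_2, at 6.997, 5.13 and 7.94 in set 4 and at 7.77, 5.77 and 8.50 in set 2. Each group overlapped its neighbours in the order of levels. None of the log2 changes against NC passed, at 0.27 (edgeR adjusted p = 0.278), 0.18 (0.456), -0.32 (0.0915) and -0.19 (0.321) in that order of groups. The value in set 4 passed as lower without NC replicate 1 (-0.42, adjusted p = 0.0486) and without set 4 column 3 (-0.46, adjusted p = 0.0306). Under total-count scaling it was lower in both sets (-0.51 and -0.38, adjusted p = 0.0088 and 0.0455). HLA-B, HLA-C, HLA-E, B2M and TAPBP were higher in both shTMEM45A sets. TAP1 and ERAP1 were lower in both, and TAP2 passed as lower in set 2 alone. No value of NLRC5 in these sets was above the highest of NC. The part of NLRC5 in these changes was not tested.

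The order of the groups was the same for HLA-B, HLA-C, HLA-E and B2M, with the shTMEM45A sets on top and overlapping each other, NC next, and the sets labelled shSHCBP1 lowest. NC and its neighbours in that order did not overlap for any of these 4 genes. For TAPBP the shTMEM45A sets were likewise on top, and NC, shSHCBP1_1 and shSHCBP1_2 could not be separated beyond their spread. ERAP1 and TAP1 had the shTMEM45A sets at the bottom. The 2 sets of each target were close to each other. Between shSHCBP1_2 and shSHCBP1_1, 0 of the 9 genes passed with edgeR and 0 with DESeq2, and 1 had an unadjusted p under 0.05, while 0.835% of all genes passed (0.499% higher and 0.336% lower). Between set 2 and set 4, 0 of 9 passed with either tool and 1, TAP1, had an unadjusted p under 0.05, beside 5.27% of all genes (1.95% higher and 3.32% lower). TAP1 was at -0.42 in set 2 against set 4 (SE 0.14, adjusted p = 0.0755), and it passed without set 2 replicate 2 (-0.55, adjusted p = 0.0226), without set 4 column 3 (-0.53, adjusted p = 0.0398) and with no filter on low counts (-0.45, adjusted p = 0.016).

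The mean of the shTMEM45A sets was set against the mean of the sets labelled shSHCBP1, a comparison that leaves NC out but still crosses the 2 tables. HLA-B (0.59), HLA-C (0.56), HLA-E (0.57), B2M (0.60) and TAPBP (0.69) were higher on the log2 scale, with SE of 0.03 to 0.05 and edgeR adjusted p of at most 3.42e-13. TAP1 (-1.69, SE 0.09, adjusted p = 2.49e-17), ERAP1 (-0.88, SE 0.14, adjusted p = 1.17e-06) and NLRC5 (-0.48, SE 0.12, adjusted p = 0.000592) were lower. That is 5 higher and 3 lower of 9, where 35.2% and 44.1% of all genes passed in those directions and 79.3% in either. TAP2 was at -0.01 (SE 0.06, adjusted p = 0.904), which changed sign between scalings and passed as lower with total counts (-0.35, adjusted p = 2.14e-06). This was the one comparison in which NLRC5 passed.

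The choice of scaling moved these values. TMM factors, which adjust library totals for their composition, were 1.01 to 1.02 in NC, 1.11 to 1.13 in the libraries labelled shSHCBP1 and 0.877 to 0.896 in the shTMEM45A libraries. Total-count scaling moved the median log2 change of all genes to 0.15 and 0.17 in shSHCBP1_1 and shSHCBP1_2 and to -0.23 in both shTMEM45A sets. HLA-B, HLA-C, HLA-E and B2M still lay below those medians in both sets labelled shSHCBP1. Relative to the medians, the rises of the same genes and of TAPBP in the shTMEM45A sets also kept their direction. Of all calls, 47.0% and 50.3% were higher in shSHCBP1_1 and shSHCBP1_2 with TMM, 29.1% and 34.6% with RLE size factors and 86.1% and 81.7% with total counts. The 9 genes together took 0.133% of all counts in NC, 0.131% and 0.129% in shSHCBP1_1 and shSHCBP1_2, and 0.149% and 0.145% in set 4 and set 2.

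**Figure D3:**
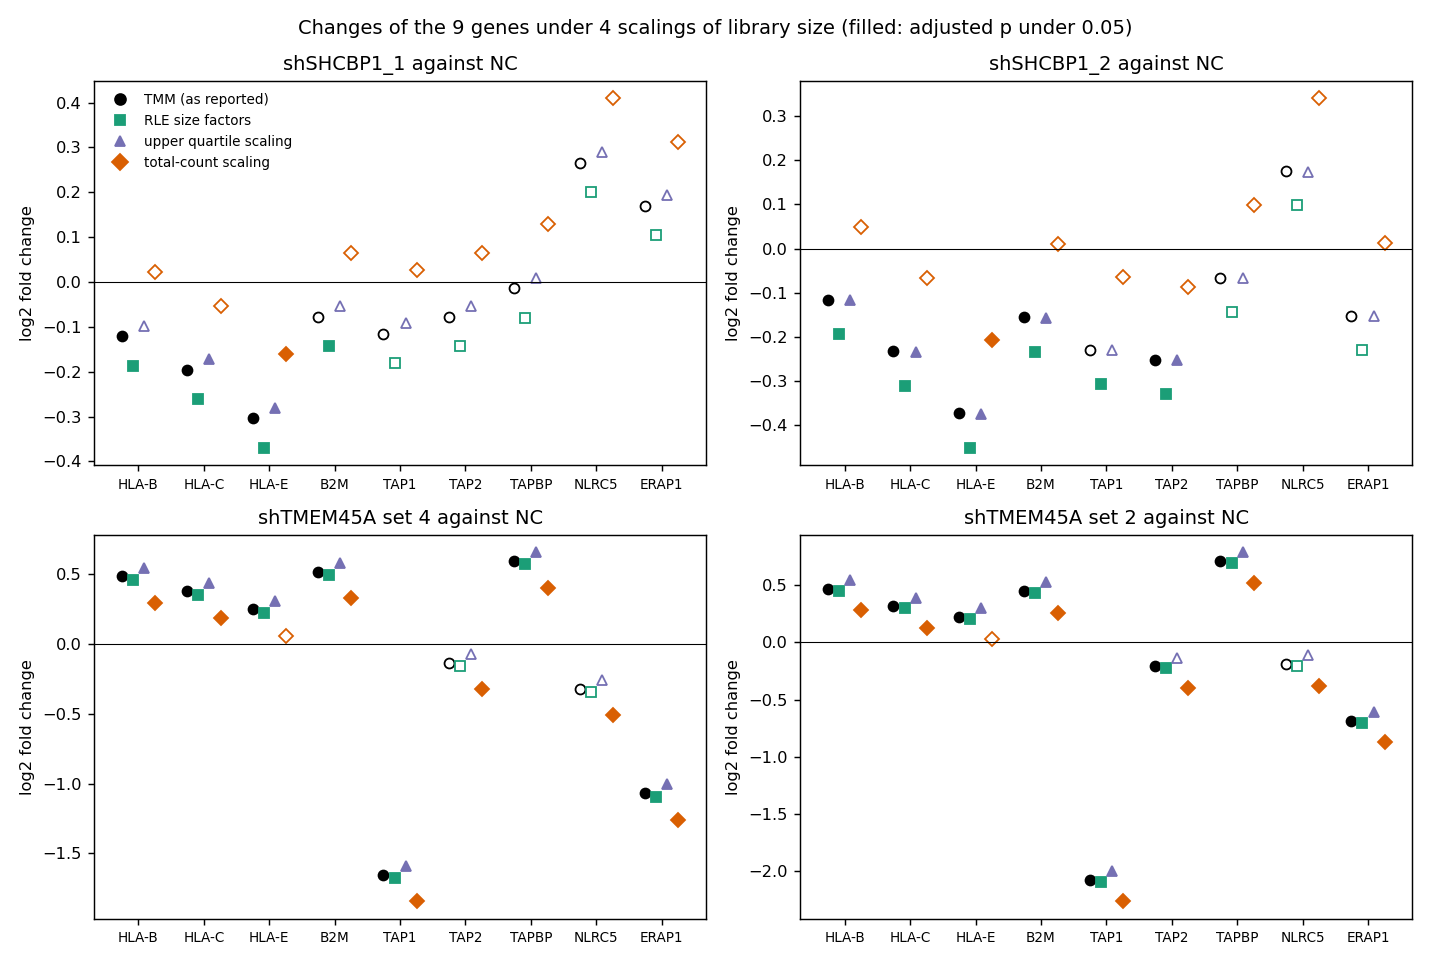
Log2 fold change against NC (vertical axes differ between panels) of the 9 genes under TMM, RLE, upper quartile and total-count scaling, filled where the adjusted p was under 0.05. In the libraries labelled shSHCBP1 total counts lift every gene and leave HLA-E alone past the threshold, at -0.16 and -0.21, while in the shTMEM45A sets TAP1 lies at or below -1.59 under each scaling.

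**Figure D4:**
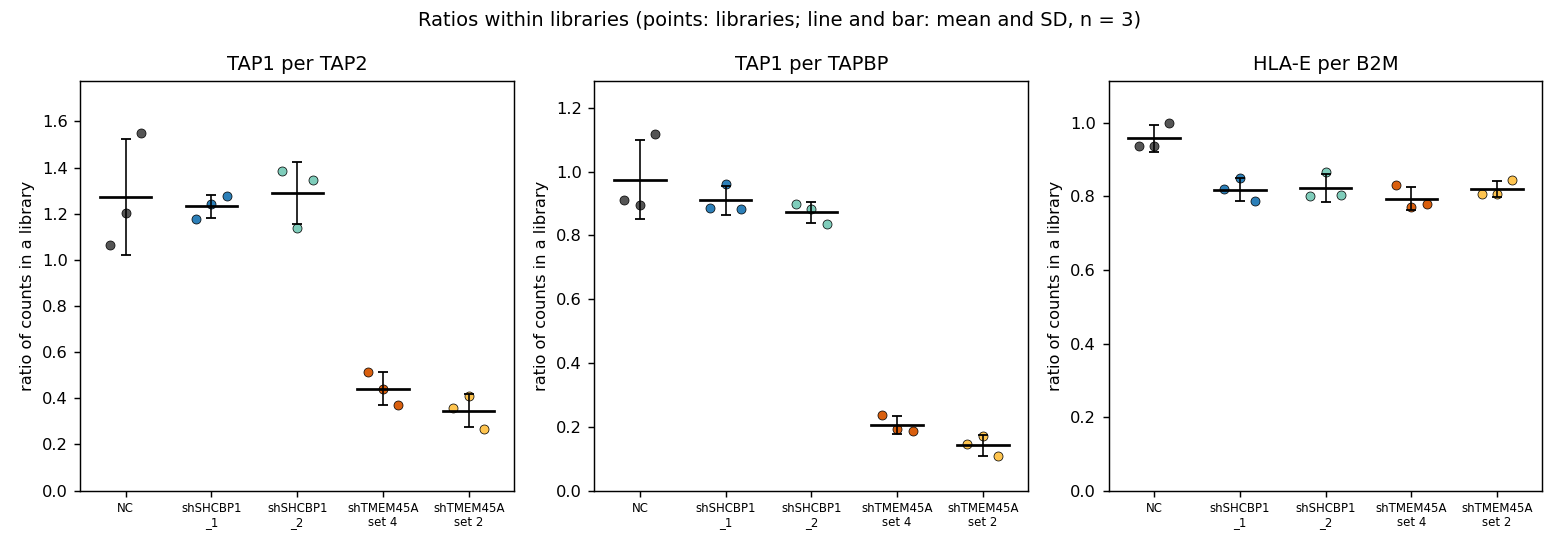
Ratios of counts within each library, with points for libraries and the mean and SD of 3 as line and bar. The panels give TAP1 per TAP2, TAP1 per TAPBP and HLA-E per B2M: the 6 shTMEM45A libraries lie below the other 9 in the first 2 panels, with TAP1 per TAPBP at most 0.237 against at least 0.836, and in the last panel the NC libraries lie above the other 12.

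Relative to HLA-B and HLA-C, B2M differed little between groups. B2M counts per summed HLA-B and HLA-C count were 0.264 ± 0.0152 in NC, 0.281 ± 0.000932 in shSHCBP1_1, 0.270 ± 0.00844 in shSHCBP1_2, 0.283 ± 0.0141 in set 4 and 0.278 ± 0.0179 in set 2 (SD, n = 3). Both shTMEM45A sets and shSHCBP1_2 overlapped NC, and shSHCBP1_1 lay above it. HLA-E counts per B2M count ran from 0.937 to 1.0007 in NC and was below that in all 12 other libraries, from 0.772 to 0.867. HLA-E was therefore lower relative to B2M with every hairpin set, including those in which its CPM was higher.

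The rest of the loading complex and the trimming enzymes changed in both directions. Of 12 such genes, all tested, 3 passed as higher and 7 as lower in each shTMEM45A set, with medians of -0.29 and -0.21. Over all genes, 35.6% and 36.1% passed as higher, 38.9% and 39.8% as lower, and 74.4% and 75.9% in either direction. CANX, which encodes calnexin, the chaperone that receives new heavy chains, went from 1119.7 ± 53.5 CPM in NC to 529 ± 14.0 and 511 ± 11.9 (log2 changes -1.08 and -1.13, edgeR adjusted p = 8.8e-21 and 2.49e-21). PDIA3, the thiol oxidoreductase bound to tapasin, went from 276 ± 5.82 to 419 ± 11.6 and 413 ± 36.8 CPM (0.60 and 0.58). Along with ERAP2 and PDIA3, the cytosolic peptidase THOP1 rose (0.46 and 0.55), while NPEPPS, a cytosolic aminopeptidase, fell (-0.84 and -0.89). TAPBPL, which encodes the tapasin-related editor TAPBPR, was lower in set 2 (-1.86, adjusted p = 0.00139) and in set 4 (-1.09, adjusted p = 0.0359), but its call in set 4 was lost without NC replicate 2 or 3 or set 4 column 1 or 3 (adjusted p = 0.0833, 0.187, 0.0861 and 0.0792).

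With hairpins labelled shSHCBP1, 5 of these 12 genes passed as lower in each set, and 0 and 1 as higher. Over all genes, 10.5% and 15.4% passed as lower and 9.34% and 15.6% as higher. CALR, the lectin chaperone calreticulin of the loading complex, stood at 1029.8 ± 18.3 CPM in NC and fell to 851 ± 28.2 and 793 ± 23.4 (-0.27 and -0.38, edgeR adjusted p = 5.35e-06 and 9.03e-09). In set 4 and set 2 it stood at 1089 ± 29.1 and 1081 ± 43.9 CPM, which did not pass (adjusted p = 0.0608 and 0.0991). CANX also passed as lower in these libraries (-0.23 and -0.24), though not with total-count scaling (-0.09 and -0.08).

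Genes of the immunoproteasome and of the PA28 activator changed in both directions in the shTMEM45A libraries, with more rises than falls. Of 8 immunoproteasome and PA28 genes, 5 passed as higher in each set, with medians of 1.15 and 1.17, and 2 and 1 as lower, beside 35.6% and 36.1% of all genes higher and 74.4% and 75.9% in either direction. One of the 5 rises, that of PSMB8, rests on 1 count in NC. PSMB9, an inducible catalytic subunit whose gene lies beside TAP1, stood at 1.62 ± 0.170 CPM in NC, 7.48 ± 2.53 in set 4 and 7.94 ± 1.28 in set 2 (log2 changes 2.21 and 2.29, SE 0.26, edgeR adjusted p = 6.17e-09 and 2.53e-09). TAP1 and PSMB9 thus went in opposite directions. PSMB10, another gene of the immunoproteasome, stood at 1.09 ± 0.575 CPM in NC and passed in neither set (-0.32 and -0.41). POMP, the proteasome assembly factor, went from 103 ± 3.81 to 315 ± 3.44 and 335 ± 9.18 CPM (1.62 and 1.71). The PA28 subunit genes PSME1 (0.97 and 0.95) and PSME2 (1.33 and 1.38) rose as well, and PSME4, a different proteasome activator, fell (-0.32 and -0.27).

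PSMB8, the other inducible subunit in that cluster, had 1 count over the 3 NC libraries against 30 in set 4, 21 in set 2, 21 in shSHCBP1_1 and 23 in shSHCBP1_2. The ratios of scaled counts were 31.3 (95% interval 5.21 to 1278), 21.7 (3.49 to 898), 18.3 (2.94 to 756) and 21.1 (3.42 to 868), intervals that cover counting error only. PSME1 was lower in shSHCBP1_1 and shSHCBP1_2 (-0.31 and -0.40, edgeR adjusted p = 0.000592 and 1.33e-05), a call that total-count scaling ended in shSHCBP1_1 (-0.17, adjusted p = 0.0537). PSMB9 stood at 2.50 ± 0.474 and 2.47 ± 0.328 CPM there, which did not pass (adjusted p = 0.126 and 0.111).

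The other class I and class I-like chains also included more rises than falls in the shTMEM45A libraries. Of 14 such genes 10 were tested, and 7 passed as higher in set 4 and 6 in set 2, with 2 lower in each, where 35.6% and 36.1% of all genes passed as higher and 74.4% and 75.9% in either direction. MR1, which presents vitamin B metabolites, went from 4.31 ± 0.995 CPM in NC to 12.6 ± 2.28 and 12.98 ± 3.35 (log2 changes 1.54 and 1.59, edgeR adjusted p = 4.02e-08 and 2.13e-08). It was higher in shSHCBP1_1 and shSHCBP1_2 too (0.78 and 0.85, adjusted p = 0.00623 and 0.00186), the first call being lost without shSHCBP1_1 replicate 2 (0.65, adjusted p = 0.052). Among ligands of the NK receptor NKG2D, ULBP1 (1.20 and 1.86) and RAET1G (1.36 and 1.32) rose, while ULBP3 fell from 4.98 ± 0.409 CPM to 0.383 ± 0.164 and 0.382 ± 0.173 (-3.66 and -3.67, adjusted p = 1.83e-11 and 1.52e-11) and MICB fell (-0.77 and -0.44). HLA-G had 0 counts in all 15 libraries.

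**Figure D5:**
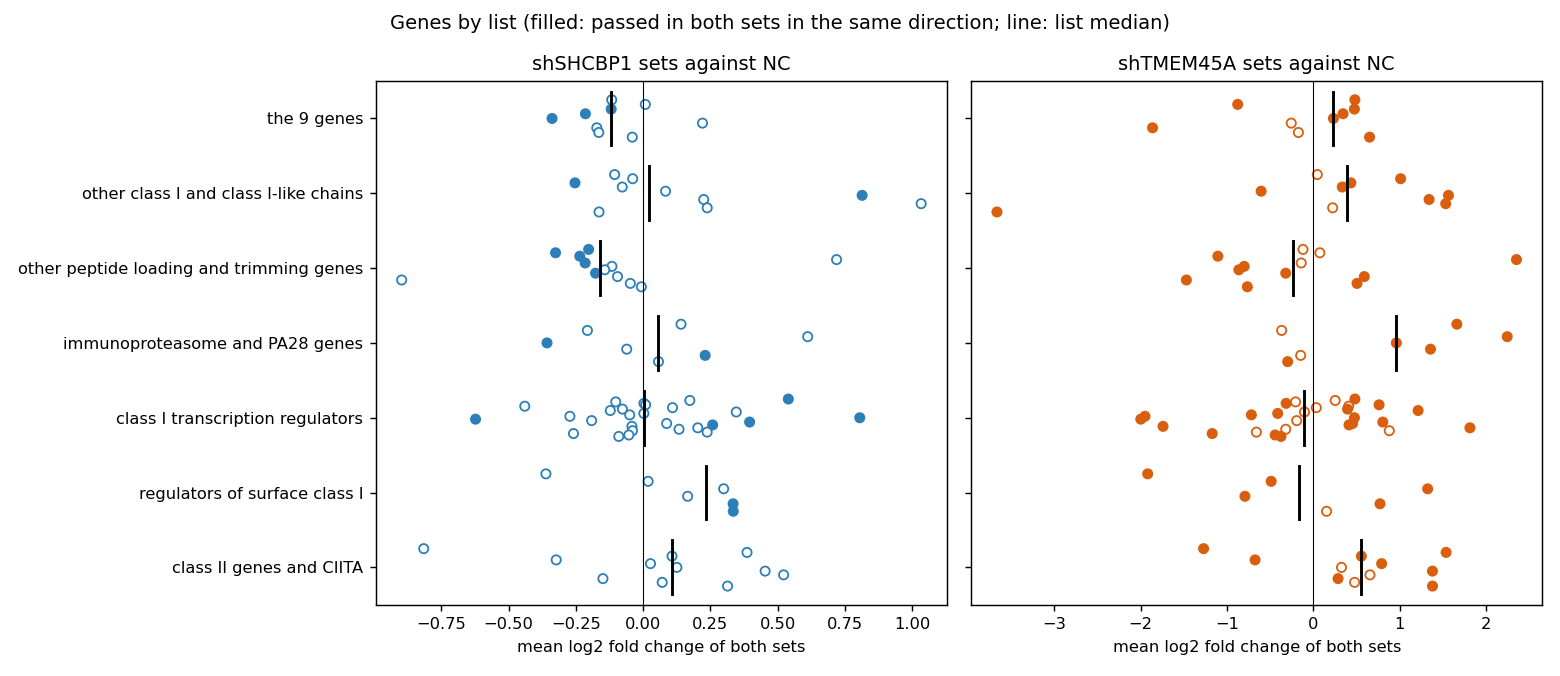
Mean log2 fold change of both hairpin sets against NC (horizontal axes, which differ between panels) for the genes tested in each list, filled where a gene passed in both sets in the same direction, with a line at the list median. PSMB8, with 1 count in NC, is left out of its list and of that median, and the shTMEM45A panel holds TAP1 at the far left of the 9 genes and the proteasome genes mostly right of 0.

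Regulators of class I transcription went both ways. The list holds transcription factors together with interferon signalling genes such as JAK1, IFNAR1 and SOCS1, and also EZH2, EED and SUZ12. Of 27 regulators, all tested, 11 passed as higher and 11 as lower in set 4, and 10 and 11 in set 2. Over all genes, 35.6% and 36.1% passed as higher, 38.9% and 39.8% as lower, and 74.4% and 75.9% in either direction. The counts are near this background, and single genes carry the description. IRF1, which binds the interferon response element of class I genes, went from 7.04 ± 0.486 CPM in NC to 17.2 ± 2.16 and 15.5 ± 2.32 (log2 changes 1.29 and 1.13, edgeR adjusted p = 1.1e-08 and 1.41e-07). The proteins that hold NLRC5 to DNA were uneven. RFX5 went from 85.0 ± 1.66 to 26.7 ± 0.435 and 24.3 ± 2.07 CPM (-1.67 and -1.81), and NFYA from 75.0 ± 2.26 to 20.5 ± 2.26 and 17.1 ± 2.92 (-1.87 and -2.13). Among their partners 2 of 4 rose in both sets, RFXANK from 37.4 ± 2.64 to 121 ± 13.5 and 143 ± 6.31 CPM (1.69 and 1.94) and NFYC from 38.1 ± 1.77 to 63.0 ± 1.03 and 70.5 ± 0.727 (0.72 and 0.89). The other two were RFXAP (-0.34 and -0.30) and NFYB (-0.30 and -0.09), which passed as lower in set 4 (adjusted p = 0.0435 and 0.00742) and not in set 2 (0.0645 and 0.41). Neither call in set 4 held without NC replicate 2 (adjusted p = 0.303 and 0.0526), and that of RFXAP was also lost without set 4 column 1 or 2 (0.0527 and 0.201) and with upper quartile scaling (0.0976).

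Among the interferon signalling genes, kinases were lower and receptor chains were level or higher. JAK2, a kinase of the interferon gamma receptor, stood at 7.999 ± 1.56 CPM in NC, 2.87 ± 0.812 in set 4 and 1.49 ± 0.726 in set 2 (log2 changes -1.48 and -2.42, edgeR adjusted p = 3.68e-06 and 2.77e-09). STAT2, which carries type I interferon signals to the nucleus, fell too (-1.05 and -1.29), as did the kinases JAK1 (-0.75 and -0.68) and TYK2 (-0.36 and -0.38). The receptor chain genes IFNAR1 (0.73 and 0.80) and IFNGR2 (0.30 and 0.49) passed as higher in both sets, the call of IFNGR2 in set 4 being lost with total-count scaling (0.11, adjusted p = 0.123). IFNAR2 passed in set 2 (0.60, adjusted p = 0.0057) and not in set 4 (0.22), and IFNGR1 in neither (0.03 and 0.04). Among 8 interferon genes, IFNG had 0 counts in all libraries. IFNB1 had 0 counts in NC and in the libraries labelled shSHCBP1 against 147 in set 4 and 119 in set 2, at least 51.2- and 41.0-fold higher than a floor of 3 counts over the NC group. IFNL1 had 7 counts in NC against 44 and 46 (2.67 and 2.70, adjusted p = 0.0016 and 0.00131).

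In the libraries labelled shSHCBP1, 5 of the 27 regulators passed as higher and 1 as lower in shSHCBP1_1, and 4 and 2 in shSHCBP1_2. Over all genes, 19.9% and 31.1% passed in either direction, so these counts do not stand out from the background. NFKB1 went from 9.89 ± 1.01 CPM in NC to 16.4 ± 0.455 and 18.3 ± 0.847 (log2 changes 0.73 and 0.88, edgeR adjusted p = 2.9e-05 and 5.86e-07). NFYA was lower here as well, at 51.9 ± 0.271 and 45.7 ± 3.72 CPM (-0.53 and -0.71), and NFYC higher, at 52.4 ± 1.82 and 48.1 ± 0.635 (0.46 and 0.34).

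Regulators that act on class I at the surface, and the class II genes, were counted last. Of 6 surface regulators tested out of 10 listed, 2 passed as higher and 3 as lower in set 4, and 3 and 3 in set 2. Of all genes, 74.4% and 75.9% passed in either direction in these sets. SPPL3, a protease that limits class I glycolipid shielding, went from 26.1 ± 1.81 CPM in NC to 60.7 ± 3.90 and 70.4 ± 9.21, and B3GNT5, the glycosyltransferase it acts against, from 14.4 ± 0.135 to 3.46 ± 1.29 and 4.11 ± 1.30. SUSD6 and TMEM127, which pair in a complex that sends class I for degradation, parted, at -0.71 and -0.87 for the first and 0.69 and 0.86 for the second. Of 11 class II genes tested, 6 passed as higher and 2 as lower in each shTMEM45A set, beside 35.6% and 36.1% of all genes as higher. Calls in either direction were near the 74.4% and 75.9% over all genes. HLA-DRB1 was at 1.32 and 1.44 and HLA-DMA at 1.52 and 1.55. CIITA, the class II transactivator, was lower at -1.24 and -1.30 (edgeR adjusted p = 0.0213 and 0.0164), calls lost without NC replicate 3 (adjusted p = 0.106 and 0.0855) and, in set 4, without its column 3 (0.0866).

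Leukocyte markers and markers of the line moved in the same libraries. The summed CPM of the 16 leukocyte markers ran from 11.2 to 12.1 in NC, 11.8 to 14.8 in shSHCBP1_1, 12.6 to 16.0 in shSHCBP1_2, 14.4 to 20.001 in set 4 and 22.96 to 24.5 in set 2. Of the 8 tested, 3 passed as higher in each shTMEM45A set, beside 35.6% and 36.1% of all genes. NKG7 alone passed as lower, in set 2, beside 39.8% of all genes. With hairpins labelled shSHCBP1, CD14 alone passed, beside 19.9% and 31.1% of all genes in either direction. CD14, the monocyte co-receptor, had 0.301 CPM in NC, 0.971 in shSHCBP1_1, 2.31 in shSHCBP1_2, 3.06 in set 4 and 5.21 in set 2. It passed as higher in each (edgeR adjusted p = 0.0126, 3.61e-06, 2.93e-08 and 1.24e-10), though in shSHCBP1_1 not without NC replicate 1 (0.0502) or its own replicate 2 (0.0607). NKG7, a granule gene of killer cells, went the other way, at -0.78 (adjusted p = 0.0707) and -1.43 (0.00263) on the log2 scale in set 4 and set 2. PTPRC, the general leukocyte marker, had 0 counts. Of the 4 markers of the line that were tested, 2 passed as higher and 1 as lower in each shTMEM45A set. The share of all genes in either direction was 74.4% and 75.9%. EGFR, which the line is known to amplify, fell from 16.3 CPM in NC to 8.25 and 9.08 in set 4 and set 2. KRT17, a basal keratin, went from 0.116 to 2.24 and 1.13 CPM (log2 changes 4.18 and 3.19). Its NC level rests on 5 counts over the NC libraries, against 93 in set 4 and 47 in set 2. EPCAM, an epithelial adhesion molecule, went from 4.79 to 7.19 and 7.92 CPM (0.58 and 0.72), its call in set 4 being lost with total-count scaling (adjusted p = 0.0633) or without NC replicate 2 (0.0655). Their part in the results above was not tested.

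The genes whose centred log2 CPM over the 15 libraries was nearest to each of the 9 were looked up among 10881 genes. HLA-B was nearest to PPP1CA, CCT7 and XRCC6 (root mean square differences 0.0402, 0.0414 and 0.0423), and HLA-E to PRMT1, AKR1A1 and GRHPR (0.0371, 0.0420 and 0.0441). HLA-C was nearest to EIF3B (0.0430), B2M to XRCC6 (0.0554), TAP2 to VDAC1 (0.0666) and TAPBP to ASPSCR1 (0.0712). TAP1 was nearest to NUMA1 (0.126), NLRC5 to C7orf43 (0.143) and ERAP1 to EMB (0.185), at larger distances. Among the 9 genes themselves, HLA-B and HLA-C differed by 0.0618 and HLA-B and B2M by 0.0624, while HLA-B and TAP1 differed by 1.15.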

How the data were processed

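Counts of reads per gene symbol, whole numbers with no normalization, were deposited by the authors in 2 tables of 58735 rows, as the values themselves show. Aligner and counter: not given in the sources used here. A mouse build, mm10, is named in the submitters' processing notes, although the symbols are human, and no human genome, lengths or sequences were used here, so neither coordinates nor levels between genes are given. Per the labels' protocols, oligo-dT beads and a NEBNext Ultra kit that does not mark strand were used. Names on several rows or turned into dates were left out (200 names, 1768 rows). Column names gave 12 libraries. The 3 columns of set 4 could be tied to their group but not to single labelled libraries.

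The filterByExpr step kept genes by a count minimum of 10 and a total minimum of 15. All 15 libraries entered one fit of group means with TMM scaling in edgeR 4.0.16 (R 4.3.3). Each of 7 comparisons was a quasi-likelihood F test, its p-values adjusted by Benjamini-Hochberg over 19051 genes, with 0.05 as the threshold. Adjusted p-values are edgeR's from this fit unless an alternative is named, and SE is the size of the log2 change over the square root of F. CPM values are TMM-scaled, as mean ± SD of 3 libraries. At these depths (13780294 to 16484000 counts), 3 counts are at most 0.218 CPM. Likeness used log2 CPM with prior count 2. Alternatives were RLE size factors, upper quartile and total-count scaling, other filters, DESeq2 1.42.0, duplicated names summed, the compared groups alone, a replicate block and each library left out. The fit was tested on simulated data.

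The 9 genes and the gene lists were chosen with earlier results of these data known. All 9 genes are named. From each other list, up to 3 rises and 3 falls that passed in both sets of a target were taken by size, and genes with 0 counts. LAP3 and other genes of the lists that the rule also reached are in the counts and not described. Some genes of the lists are not reported here and are in no list's count. ERAP1 per ERAP2, the low-count PSMB8, PSMB10, PSME2 and STAT2 were chosen after their values were seen. So were the other interferon kinases and receptor chains, RFXAP, NFYB, NKG7 and CD3E.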

Additional observations from a re-analysis of the deposited data

Results flagged for a closer look

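Differences between the 2 hairpin sets of TMEM45A were tested by the contrast of set 2 with set 4, which is where the genes below stood out. NFKB1 was 0.40 higher on the log2 scale in set 2 (SE 0.115, edgeR adjusted p = 0.0364). This call was lost in 10 of 15 fits that left out 1 library (any replicate labelled shSHCBP1, any column of set 4, or set 2 replicate 3), with adjusted p from 0.0249 to 0.12 over the 15, as well as with no filter on low counts (0.0983) and with both sets fitted alone (0.229). RFXANK was 0.24 higher (SE 0.0697, adjusted p = 0.0358). It was lost in 8 of 15 (NC replicate 1, shSHCBP1_1 replicate 1, any replicate of shSHCBP1_2, set 2 replicate 1 or 3, or set 4 column 3), with adjusted p from 0.0136 to 0.236, and with both sets fitted alone (0.17). None of the 9 genes passed this contrast with edgeR or DESeq2, and 1 had an unadjusted p under 0.05.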

How the results depend on the processing

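Of the log2 changes of the 9 genes under all alternatives, 1439 kept direction and side of the threshold, 38 lost and 15 gained a call, and 29 changed sign. With total-count scaling 1 gene passed in shSHCBP1_1 (3 with TMM) and 1 in shSHCBP1_2 (5 with TMM). Total counts turned the sign in shSHCBP1_1 of HLA-B (0.022), B2M (0.065), TAP1 (0.027), TAP2 (0.065) and TAPBP (0.13), and in shSHCBP1_2 of HLA-B (0.049), B2M (0.0096), TAPBP (0.10) and ERAP1 (0.012). They also turned the sign of EPCAM between the means of both targets (-0.068). Upper quartile scaling turned TAPBP in shSHCBP1_1 (0.0098) and HLA-B between set 2 and set 4 (0.0032). HLA-B between the shSHCBP1 sets turned with RLE (-0.0076), upper quartile (-0.0199) and DESeq2 (-0.0075). TAP2 between the means of both targets turned with RLE (0.0415), upper quartile (0.0492), a filter of at least 1 CPM (0.004), DESeq2 (0.0414) and the compared groups alone (0.0472). With no filter 3 genes passed in shSHCBP1_2 and 1 between set 2 and set 4. Fits of the compared groups alone called 5708 genes in shSHCBP1_1 (3787 in the fit of 15), 1674 between the shSHCBP1 sets (159) and 129 between set 2 and set 4 (1004), and DESeq2 called 377 between the shSHCBP1 sets. The cause was not tested.

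Leaving out each library gave 3 to 5 of the 9 genes in shSHCBP1_2, 0 to 1 between set 2 and set 4, and 27 to 426 of all genes between the shSHCBP1 sets. Values that changed sign ran from -0.22 to 0.0058 for TAP1 and -0.077 to 0.043 for TAPBP in shSHCBP1_1, and from -0.25 to 0.064 for ERAP1 in shSHCBP1_2. Between the shSHCBP1 sets HLA-B ran from -0.0072 to 0.027, and between set 2 and set 4 HLA-B ran from -0.037 to 0.016 and NLRC5 from -0.028 to 0.28. TAP2 between the means of both targets ran from -0.036 to 0.0092.

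A replicate block could be fitted over the 12 libraries with labelled numbers. It called 2 of the 9 genes in shSHCBP1_1, 4 in shSHCBP1_2, 8 in set 2 and 0 between the shSHCBP1 sets, the same counts as those 12 libraries without the block, a fit chosen after seeing the data. Over all genes the block called 4016, 6202, 14362 and 179. Same-numbered libraries did not deviate together: 0 of 18 pairs had a correlation over 0.1, the median was 0.0028, and 6 of 12 libraries correlated best with their own number. The trend with transcript length and a search for promoter motifs were not run, since 6 of the 9 genes had a namesake in the mouse tables and no human lengths were used here. At this depth NLRC5 and ERAP1, at under 12 CPM in each library, have the largest errors of the 9.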
